A study of Homo sapiens with 4 samples.

Results

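The genes described here are the enzymes and regulators of cholesterol and fatty acid synthesis in SUP-M2. This established line comes from a human anaplastic large cell lymphoma, a tumour of mature T cells, of the kind driven by the ALK kinase. The set is 31 genes taken by symbol from a table of 58735 genes, and 29 of the 31 were among the 14166 genes with enough counts to be tested. The RNA-seq had 2 groups. In shGOLM1 (2 libraries) the cells carried short hairpin RNA against GOLM1, a membrane protein of the Golgi apparatus, and in shscramble (2 libraries) they carried a scrambled hairpin. By genotype label the shGOLM1 samples are a GOLM1 knockout and the shscramble samples control, while the titles name hairpins. The labels name no other allele or agent. Whether 1 hairpin sequence was used in both shGOLM1 libraries, whether the cells were a pool or a clone, and whether replicates were separate cultures is not said. The p-values therefore measure spread between libraries that may be technical.

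Sterol regulatory element-binding proteins (SREBPs) are transcription factors made as membrane proteins of the endoplasmic reticulum. When membrane sterol is low, the escort protein SCAP carries them to the Golgi apparatus, where proteases release the active fragment. When sterol is high, the INSIG proteins hold SCAP back. SREBP-2, from SREBF2, acts mainly on the genes of cholesterol synthesis, and SREBP-1, from SREBF1, acts also on those of fatty acid synthesis. The mevalonate pathway builds farnesyl diphosphate from acetyl-CoA, squalene synthesis commits it to sterols, and a separate set of enzymes turns acetyl-CoA into saturated and then unsaturated fatty acids.

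The promoters of these genes are known for sterol regulatory elements that stand close to CCAAT and GC boxes, so the 250 bases before the RefSeq start (GRCh38.p14) are shown for 7 members whose values are described below. Their positions are SREBF2 (chr22:41832855-41833104, plus strand), INSIG1 (chr7:155297628-155297877, plus strand), INSIG2 (chr2:118088221-118088470, plus strand), MSMO1 (chr4:165327419-165327668, plus strand), STARD4 (chr5:111512536-111512785, minus strand), ACACA (chr17:37406837-37407086, minus strand) and ELOVL6 (chr4:110198616-110198865, minus strand). Each is written in the direction of its gene, and capitals mark TCACNCCAC, a core of the sterol regulatory element, and the CCAAT box on either strand (ATTGG where it lies on the other strand).
SREBF2: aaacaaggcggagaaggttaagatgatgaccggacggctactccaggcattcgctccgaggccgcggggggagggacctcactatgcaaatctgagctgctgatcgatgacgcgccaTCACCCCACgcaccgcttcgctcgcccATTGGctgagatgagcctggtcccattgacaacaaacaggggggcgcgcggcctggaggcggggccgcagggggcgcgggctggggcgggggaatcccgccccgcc
INSIG1: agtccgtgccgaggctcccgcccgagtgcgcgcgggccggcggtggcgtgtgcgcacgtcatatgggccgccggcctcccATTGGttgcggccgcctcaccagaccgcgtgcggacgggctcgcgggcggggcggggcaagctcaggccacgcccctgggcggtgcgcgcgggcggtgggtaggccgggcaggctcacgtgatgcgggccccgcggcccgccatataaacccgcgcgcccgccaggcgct
INSIG2: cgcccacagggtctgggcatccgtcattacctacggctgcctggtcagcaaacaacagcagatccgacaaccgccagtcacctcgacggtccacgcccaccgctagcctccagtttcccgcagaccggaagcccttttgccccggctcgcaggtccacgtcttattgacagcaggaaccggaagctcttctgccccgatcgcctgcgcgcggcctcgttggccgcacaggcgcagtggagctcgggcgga
MSMO1: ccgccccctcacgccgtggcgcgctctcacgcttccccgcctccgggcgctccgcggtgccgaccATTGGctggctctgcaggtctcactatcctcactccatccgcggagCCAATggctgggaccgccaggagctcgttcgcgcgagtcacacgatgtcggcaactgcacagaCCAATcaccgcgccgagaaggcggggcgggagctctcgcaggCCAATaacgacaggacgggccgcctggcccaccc
STARD4: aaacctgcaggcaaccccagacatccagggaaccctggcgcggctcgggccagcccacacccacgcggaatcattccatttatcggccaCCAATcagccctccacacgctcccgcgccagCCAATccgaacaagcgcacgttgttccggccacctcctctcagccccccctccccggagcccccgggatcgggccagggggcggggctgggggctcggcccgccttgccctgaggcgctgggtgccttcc
ACACA: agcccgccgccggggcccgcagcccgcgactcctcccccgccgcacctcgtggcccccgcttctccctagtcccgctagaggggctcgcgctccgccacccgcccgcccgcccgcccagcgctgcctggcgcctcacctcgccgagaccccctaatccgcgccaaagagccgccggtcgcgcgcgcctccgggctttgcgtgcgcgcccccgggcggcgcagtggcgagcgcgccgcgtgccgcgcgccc
ELOVL6: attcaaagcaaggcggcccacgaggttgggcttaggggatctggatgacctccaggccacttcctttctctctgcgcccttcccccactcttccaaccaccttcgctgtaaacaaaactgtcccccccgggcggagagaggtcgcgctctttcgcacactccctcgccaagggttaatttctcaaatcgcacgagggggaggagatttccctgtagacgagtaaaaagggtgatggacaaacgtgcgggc
SREBF2 held the TCACNCCAC match, 133 bases before its start, with an ATTGG between it and the start. MSMO1 held CCAAT boxes in both orientations, STARD4 held a pair in one orientation, INSIG1 held a single one, and INSIG2, ACACA and ELOVL6 held none in this window.

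RefSeq promoters were used for 27 of the 31 members, all but ACAT2, FDFT1, SQLE and FASN, and 4 motifs were searched on both strands, each counted on its own even where matches overlap. TCACNCCAC stood in 1 of the 27 (3.7%), against 0.883% of all 35116 promoters of the same length. CCAAT stood in 17 of 27 (63%), against 32% of all promoters. GGGCGG, the GC box, stood in 25 of 27 (92.6%), against 42.6%. CACGTG, an E box, stood in 3 of 27 (11.1%), against 6.34%. Each member gave 1 promoter, the first listed for its symbol, which need not stand at the start of the counted gene. For IDI1, on the minus strand, the window was chr10:1056705-1056954, while the counted gene spans 1039152 to 1049170. The 35116 were all promoters of that length, not matched to the members by gene class or level. The shares therefore do not show a trait particular to these genes. These counts describe letters in a window and not binding.

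The targeted transcript was lower in both shGOLM1 libraries. GOLM1 (ENSG00000135052, chromosome 9, 86026146 to 86100173, GRCh38) had 69.5 and 69.5 CPM in shGOLM1 replicates 1 and 2, against 211 and 213 CPM in shscramble replicates 1 and 2, where CPM is the count scaled to the library's TMM-adjusted total. On the log2 scale GOLM1 differed by -1.61 (SE 0.27), or 3.05-fold lower, with an adjusted p over all genes of 0.42 in edgeR and 0.0208 in DESeq2. The shGOLM1 libraries stood apart from each other across the transcriptome: across genes, the shGOLM1 pair had a coefficient of variation of 68.1% and the shscramble pair one of 9.11%. Libraries held 30889185 and 27544171 counts in shGOLM1 and 31972153 and 31608073 counts in shscramble. Transcripts of mitochondrial DNA took 1.95% and 0.455% of the counts in shGOLM1 replicates 1 and 2, against 2.38% and 2.24% in shscramble, and ribosomal protein genes took 7.56% and 16.4% in shGOLM1, against 9.93% and 8.45% in shscramble. The part of these differences in the results was not tested. Markers of anaplastic large cell lymphoma and T cells, 12 genes, summed to 4201 and 6598 CPM in shGOLM1, against 4855 and 4539 CPM in shscramble. Much of that sum was NPM1, a gene active in most cells, at 1709 and 4701 CPM in shGOLM1, against 2941 and 2690 CPM in shscramble. TNFRSF8, which encodes CD30, was at 538 and 88.3 CPM in shGOLM1, against 634 and 613 CPM in shscramble. ALK was at 327 and 170 CPM in shGOLM1, against 340 and 316 CPM in shscramble, while the T cell genes CD3E, CD8A and CD5 were at or near 0 in every library. Some other markers had higher values in shGOLM1. PRF1, the perforin of cytotoxic cells, had 620 and 145 CPM in shGOLM1, against 2.91 and 2.7 CPM in shscramble. CD4 had 307 and 380 CPM in shGOLM1, against 182 and 179.7 CPM in shscramble. PTPRC had 202 and 490.3 CPM in shGOLM1, against 161 and 180.1 CPM in shscramble. CD2 had 5.07 and 5.79 CPM in shGOLM1, against 2.17 and 2.85 CPM in shscramble. Others of the list lay on both sides of the shscramble pair. GZMB, a granzyme of cytotoxic cells, had 149 and 20.4 CPM in shGOLM1, against 118 and 86.2 CPM in shscramble. IL2RA had 345 and 598 CPM in shGOLM1, against 475 and 468 CPM in shscramble. The 4 B cell markers summed to at most 0.658 CPM in any library, the 4 epithelial markers to at most 3.16 CPM and the 4 fibroblast and endothelial markers to at most 0.439 CPM. The 4 myeloid markers summed to 310 and 231 CPM in shGOLM1, against 235 and 242 CPM in shscramble, nearly all of it CSF1R. In bulk RNA, fewer cells expressing a gene and less of its RNA per cell cannot be told apart.

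With both shGOLM1 libraries taken as replicates, none of the 29 tested members passed an adjusted p under 0.05 in edgeR's quasi-likelihood test in either direction, nor did any other gene (0% of 14166 higher and 0% lower). At an unadjusted p under 0.05, 1 member was higher (STARD4) and 1 was lower (ACAT2), beside 8.2% of all genes higher and 3.58% lower. DESeq2, limma-voom and a robust edgeR fit also called 0 members, and the smallest adjusted p of a member was 0.42 in edgeR and 0.0586 in DESeq2, in both cases for STARD4. In the authors' deposited table, none of the members had an adjusted p under 0.05, and the smallest was 0.0505, also for STARD4. Both shGOLM1 libraries lay above both shscramble libraries for 3 members, INSIG2, CYP51A1 and STARD4 (25.2% of all genes), and below both for 10 members (26.5% of all genes). The median log2 fold change of the members was -0.09, beside 0.05 over all genes tested. Leaving out shGOLM1 replicate 1 gave 10 members higher and 12 lower, and leaving out shGOLM1 replicate 2 gave 3 higher and 14 lower.

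Each shGOLM1 library was therefore also set on its own against the shscramble pair. In that fit the spread came from the shscramble pair alone, so the lone library is assumed to vary as that pair does, and the tests compare libraries and not conditions. "Called" below means an adjusted p under 0.05 in this fit, edgeR's quasi-likelihood test with Benjamini-Hochberg adjustment over all 14166 genes. Both comparisons share the shscramble libraries. In shGOLM1 replicate 1, 3 members were called higher (20.8% of all genes) and 14 were called lower (24.3% of all genes). In shGOLM1 replicate 2, 10 members were called higher (33.1% of all genes) and 11 were called lower (35.5% of all genes). At 2-fold or more, 1 member was higher and 2 were lower in shGOLM1 replicate 1 (9.01% and 4.4% of all genes). By that measure, 7 members were higher and 8 were lower in shGOLM1 replicate 2 (20.8% and 22.5% of all genes).

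**Figure D1:**
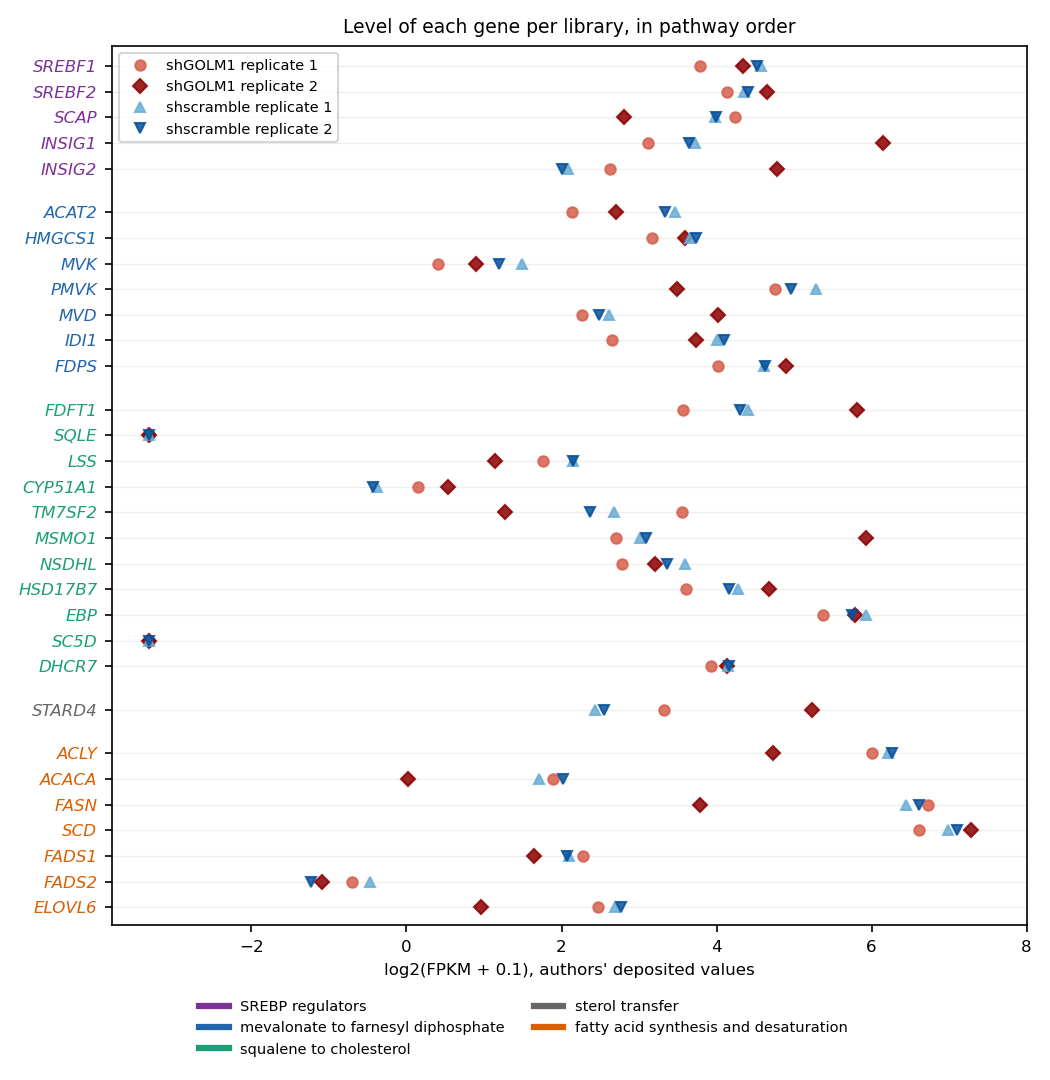
Level of each of the 31 genes in each library as log2(FPKM + 0.1) from the authors' deposited values, with genes in pathway order and coloured by role. The shscramble libraries lie close together for most genes, while shGOLM1 replicate 2 stands to the right for INSIG1, INSIG2, FDFT1, MSMO1 and STARD4 and to the left for SCAP, PMVK, ACLY, ACACA, FASN and ELOVL6, and SQLE and SC5D are at 0 in all 4 libraries.

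Compared per length, on the FPKM scale, the members spanned a wide range of levels. SCD, which puts the first double bond into saturated fatty acids, had 98.0 and 156 FPKM in shGOLM1, against 127 and 137 FPKM in shscramble. FASN, the fatty acid synthase, had 106 and 13.7 FPKM in shGOLM1, against 87.1 and 97.5 FPKM in shscramble. FADS2, a desaturase of polyunsaturated fatty acids, had 0.516 and 0.371 FPKM in shGOLM1, against 0.625 and 0.326 FPKM in shscramble, and was the lowest member with any counts in each library. Together the members took 0.353% and 0.284% of the counts in shGOLM1, against 0.355% and 0.379% in shscramble.

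The regulators of the pathway did not move as a block, and both INSIG transcripts were far higher in shGOLM1 replicate 2. SREBF1 (ENSG00000072310, chromosome 17, 17810399 to 17837002) had 113 and 167 CPM in shGOLM1 replicates 1 and 2, against 191 and 185 CPM in shscramble. Neither shGOLM1 library reached the shscramble level. The log2 fold change was -0.43 (SE 0.33, adjusted p = 0.6) with both shGOLM1 libraries, -0.73 (SE 0.11, adjusted p = 0.000175) in shGOLM1 replicate 1 and -0.18 (SE 0.10, adjusted p = 0.148) in shGOLM1 replicate 2. SREBF2 (ENSG00000198911, chromosome 22, 41833079 to 41907308) had 135 and 194 CPM in shGOLM1, against 155 and 160.3 CPM in shscramble, so that the shGOLM1 libraries lay on opposite sides of the shscramble pair. Its log2 fold change was 0.06 (SE 0.32, adjusted p = 0.949) with both, -0.22 (SE 0.10, adjusted p = 0.0996) in shGOLM1 replicate 1 and 0.30 (SE 0.10, adjusted p = 0.0195) in shGOLM1 replicate 2, where the sign turned with library totals alone as the scaling (-0.03). The SREBF2 call in shGOLM1 replicate 2 was lost in 1 more of 9 other settings. On the FPKM scale the ratio of SREBF1 to SREBF2 was 0.788 and 0.807 in shGOLM1, against 1.16 and 1.09 in shscramble. The ratio was thus lower in both shGOLM1 libraries, by a similar amount. SREBF1 overlaps RAI1 on the opposite strand, which had 1295 and 277 counts in shGOLM1 and 1436 and 1416 counts in shscramble. SREBF2 overlaps SREBF2-AS1 on the opposite strand, which had 451 and 197 counts in shGOLM1 and 263 and 241 counts in shscramble.

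SCAP (ENSG00000114650, chromosome 3, 47413694 to 47477126), the sterol-sensing escort of the SREBPs, had 124 and 45.4 CPM in shGOLM1, against 102 and 103 CPM in shscramble. Only shGOLM1 replicate 2 was low. Its log2 fold change was -0.28 (SE 0.54, adjusted p = 0.84) with both, 0.27 (SE 0.10, adjusted p = 0.0505) in shGOLM1 replicate 1 and -1.17 (SE 0.11, adjusted p = 1.41e-06) in shGOLM1 replicate 2. INSIG1 (ENSG00000186480, chromosome 7, 155297776 to 155310235), which retains SCAP and is itself a classical SREBP target, had 32.2 and 265 CPM in shGOLM1, against 48.2 and 45.6 CPM in shscramble. One shGOLM1 library was thus below the shscramble pair and the other far above it. On the log2 scale the fold change was 1.66 (SE 1.01, adjusted p = 0.536) with both, -0.54 (SE 0.11, adjusted p = 0.00217) in shGOLM1 replicate 1 and 2.50 (SE 0.10, adjusted p = 9.77e-10) in shGOLM1 replicate 2, where INSIG1 was 5.65-fold higher. INSIG2 (ENSG00000125629, chromosome 2, 118088452 to 118110997), its homologue, had 24.7 and 112 CPM in shGOLM1, against 16.5 and 15.7 CPM in shscramble. Both shGOLM1 libraries lay above both shscramble libraries. In edgeR the log2 fold change was 2.08 (SE 0.78, adjusted p = 0.423) with both, 0.62 (SE 0.12, adjusted p = 0.00152) in shGOLM1 replicate 1 and 2.79 (SE 0.12, adjusted p = 1.02e-09) in shGOLM1 replicate 2. The FPKM ratio of INSIG1 to INSIG2 was 1.41 and 2.57 in shGOLM1, against 3.16 and 3.14 in shscramble, lower in both shGOLM1 libraries.

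Most mevalonate genes were lower in shGOLM1 replicate 1, and they were mixed in shGOLM1 replicate 2. Of 7 members, 5 were called lower and 0 higher in shGOLM1 replicate 1, beside 24.3% of all genes lower and 20.8% higher, with a median log2 fold change of -0.57 and all 7 below 0. In shGOLM1 replicate 2, 3 were called lower and 2 higher, near the 35.5% and 33.1% of all genes, with a median of -0.28. The median over all genes tested was -0.01 in shGOLM1 replicate 1 and -0.05 in shGOLM1 replicate 2. ACAT2 (ENSG00000120437, chromosome 6, 159760328 to 159779055), the cytosolic thiolase that joins acetyl-CoA units, had 19.0 and 28.4 CPM in shGOLM1, against 47.3 and 43.2 CPM in shscramble. Both shGOLM1 libraries were low. The log2 fold change was -0.93 (SE 0.35, adjusted p = 0.423) with both, -1.25 (SE 0.14, adjusted p = 2.43e-05) in shGOLM1 replicate 1 and -0.67 (SE 0.13, adjusted p = 0.000611) in shGOLM1 replicate 2. ACAT2 overlaps TCP1 on the opposite strand, which had 16524 and 10567 counts in shGOLM1 and 24258 and 24473 counts in shscramble, and without a stated strand setting their reads cannot be told apart.

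IDI1, the isopentenyl diphosphate isomerase, had 27.6 and 59.3 CPM in shGOLM1, against 69.9 and 74.3 CPM in shscramble. It was called lower in both shGOLM1 libraries, 2.61-fold in replicate 1 and 1.22-fold in replicate 2, where the adjusted p was 0.0473 and between 0.000563 and 0.268 across 9 other settings, 6 of which lost the call. HMGCS1, the synthase that makes HMG-CoA, had 42.9 and 57.6 CPM in shGOLM1, against 59.6 and 62.8 CPM in shscramble. MVK, the mevalonate kinase, had 8.15 and 11.8 CPM in shGOLM1, against 17.7 and 14.3 CPM in shscramble. Both of these were called lower in shGOLM1 replicate 1. Neither was called in shGOLM1 replicate 2, though 1 of 9 other settings called HMGCS1 lower and 3 of 9 called MVK lower. MVK had 283 and 268 counts in shGOLM1, against 577 and 475 counts in shscramble. It overlaps MMAB on the opposite strand, which had 312 and 190 counts in shGOLM1 and 466 and 462 counts in shscramble. Without a stated strand setting the reads of MVK and MMAB cannot be told apart.

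PMVK (ENSG00000163344, chromosome 1, 154924734 to 154936991), the next kinase, had 35.2 and 14.7 CPM in shGOLM1, against 50.1 and 40.1 CPM in shscramble. It was lowest in shGOLM1 replicate 2. Its log2 fold change was -0.85 (SE 0.52, adjusted p = 0.536) with both, -0.36 (SE 0.15, adjusted p = 0.0662) in shGOLM1 replicate 1 and -1.62 (SE 0.17, adjusted p = 2.17e-06) in shGOLM1 replicate 2. MVD (ENSG00000167508, chromosome 16, 88651935 to 88663161), the decarboxylase that follows, had 22.8 and 78.2 CPM in shGOLM1, against 28.6 and 26.1 CPM in shscramble. It stood high in shGOLM1 replicate 2 alone. On the log2 scale the fold change was 0.88 (SE 0.65, adjusted p = 0.594) with both, -0.26 (SE 0.13, adjusted p = 0.117) in shGOLM1 replicate 1 and 1.51 (SE 0.12, adjusted p = 2.1e-07) in shGOLM1 replicate 2. FDPS, the farnesyl diphosphate synthase, had 61.6 and 113 CPM in shGOLM1, against 91.3 and 92.0 CPM in shscramble. It was called lower in shGOLM1 replicate 1 and higher in shGOLM1 replicate 2, with log2 fold changes of -0.57 and 0.31. In shGOLM1 replicate 2 the sign turned with library totals alone (-0.020), and 2 more of 9 other settings lost the call. FDPS overlaps RUSC1-AS1 on the opposite strand, which had 187 and 902 counts in shGOLM1, against 77 and 70 counts in shscramble.

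The branch from squalene to cholesterol held both members without counts and the member that differed most in shGOLM1 replicate 2. SQLE, the squalene epoxidase, and SC5D, the lathosterol desaturase, had 0 counts in each of the 4 libraries, which allows up to 3 counts per library, or 0.0864 to 0.132 CPM, covering counting error only. Loss of SQLE with dependence on cholesterol taken up from outside is known in ALK-positive lines of this lymphoma. Genes that every cell uses were not at 0: all 77 cytosolic ribosomal protein genes, 37 proteasome subunits, 30 mediator subunits and 10 exosome subunits had at least 10 counts in every library, as did 76 of 78 mitochondrial ribosomal protein genes and 29 of 31 RNA polymerase subunits. Of 19951 protein-coding genes, 26.9% were at 0 in all 4 libraries.

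MSMO1 (ENSG00000052802, chromosome 4, 165327623 to 165343160), the methyl sterol oxidase whose promoter above holds CCAAT boxes in both orientations, had 19.0 and 182 CPM in shGOLM1, against 23.3 and 24.5 CPM in shscramble. It was slightly below the shscramble pair in one shGOLM1 library and far above it in the other. In edgeR the log2 fold change was 2.07 (SE 1.08, adjusted p = 0.49) with both, -0.33 (SE 0.12, adjusted p = 0.0429) in shGOLM1 replicate 1 and 2.93 (SE 0.11, adjusted p = 4.77e-10) in shGOLM1 replicate 2, a 7.6-fold difference. The call in shGOLM1 replicate 1 was lost under 7 of 9 other settings, with adjusted p between 0.0384 and 0.206. FDFT1 (ENSG00000079459, chromosome 8, 11795573 to 11839309), the squalene synthase, had 63.0 and 299 CPM in shGOLM1, against 111 and 104 CPM in shscramble. The shGOLM1 libraries again lay on opposite sides of the shscramble pair. The log2 fold change was 0.76 (SE 0.77, adjusted p = 0.691) with both, -0.77 (SE 0.11, adjusted p = 0.000168) in shGOLM1 replicate 1 and 1.48 (SE 0.10, adjusted p = 6.06e-08) in shGOLM1 replicate 2. CYP51A1 (ENSG00000001630, chromosome 7, 92112151 to 92134803), the lanosterol demethylase, had 3.72 and 4.96 CPM in shGOLM1, against 2.42 and 2.31 CPM in shscramble. Both shGOLM1 libraries were above, at a low level. The CYP51A1 call in shGOLM1 replicate 2 was lost in 1 of 8 other settings. Its log2 fold change was 0.87 (SE 0.48, adjusted p = 0.502) with both, 0.65 (SE 0.31, adjusted p = 0.109) in shGOLM1 replicate 1 and 1.07 (SE 0.31, adjusted p = 0.00899) in shGOLM1 replicate 2.

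The other members of this branch moved less or in opposite ways. LSS, the lanosterol synthase, had 24.4 and 15.6 CPM in shGOLM1, against 31.5 and 31.5 CPM in shscramble, and was called lower in both shGOLM1 libraries. Its call in shGOLM1 replicate 1, with an adjusted p of 0.0399, was lost under 4 of 9 other settings (0.0107 to 0.255). TM7SF2, a sterol reductase, had 40.8 and 8.12 CPM in shGOLM1, against 21.6 and 17.4 CPM in shscramble. TM7SF2 was the one member called higher in shGOLM1 replicate 1 (2.09-fold) and lower in shGOLM1 replicate 2 (2.4-fold), as were 4.98% of all genes. It overlaps VPS51 on the same strand, which had 4087 and 2875 counts in shGOLM1 and 3065 and 3187 counts in shscramble. HSD17B7, a sterol ketoreductase, had 59.0 and 125 CPM in shGOLM1, against 92.6 and 86.1 CPM in shscramble. It was called lower in shGOLM1 replicate 1 and higher in shGOLM1 replicate 2, and the call in shGOLM1 replicate 2 was lost with library totals alone. NSDHL, the sterol decarboxylating dehydrogenase, had 13.9 and 18.8 CPM in shGOLM1, against 24.2 and 20.6 CPM in shscramble. EBP, the sterol isomerase, had 102 and 137 CPM in shGOLM1, against 148 and 131 CPM in shscramble. Both were called lower in shGOLM1 replicate 1 and not called in shGOLM1 replicate 2. The EBP call in shGOLM1 replicate 1 was lost in 1 of 9 other settings (adjusted p up to 0.0648), and in shGOLM1 replicate 2 other settings called NSDHL lower in 2 of 9 (down to 0.00559) and EBP lower in 1 (0.0144). DHCR7, the last reductase before cholesterol, had 64.6 and 74.5 CPM in shGOLM1, against 74.1 and 74.4 CPM in shscramble, and was called in neither library, though library totals alone called it lower in shGOLM1 replicate 2 (adjusted p = 0.0284). Of the 9 tested members of the branch, 1 was called higher and 6 lower in shGOLM1 replicate 1, beside 20.8% and 24.3% of all genes, and 4 were called higher and 2 lower in shGOLM1 replicate 2, beside 33.1% and 35.5% of all genes. Their median log2 fold change was -0.37 in shGOLM1 replicate 1 and 0.00408 in shGOLM1 replicate 2.

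STARD4 (ENSG00000164211, chromosome 5, 111496033 to 111512590), a soluble sterol carrier, was higher in both shGOLM1 libraries. It had 57.8 and 219 CPM in shGOLM1, against 30.5 and 32.9 CPM in shscramble. On the log2 scale the fold change was 2.13 (SE 0.71, adjusted p = 0.42) with both, 0.87 (SE 0.11, adjusted p = 7.49e-05) in shGOLM1 replicate 1 and 2.79 (SE 0.11, adjusted p = 5.67e-10) in shGOLM1 replicate 2. The transcript STARD4-AS1, on the opposite strand of the same locus, had 369 and 145 counts in shGOLM1, against 58 and 77 counts in shscramble. It was high in both shGOLM1 libraries too, but highest in the one where STARD4 was lower. The sources used here do not give the strand setting of the counting.

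**Figure D2:**
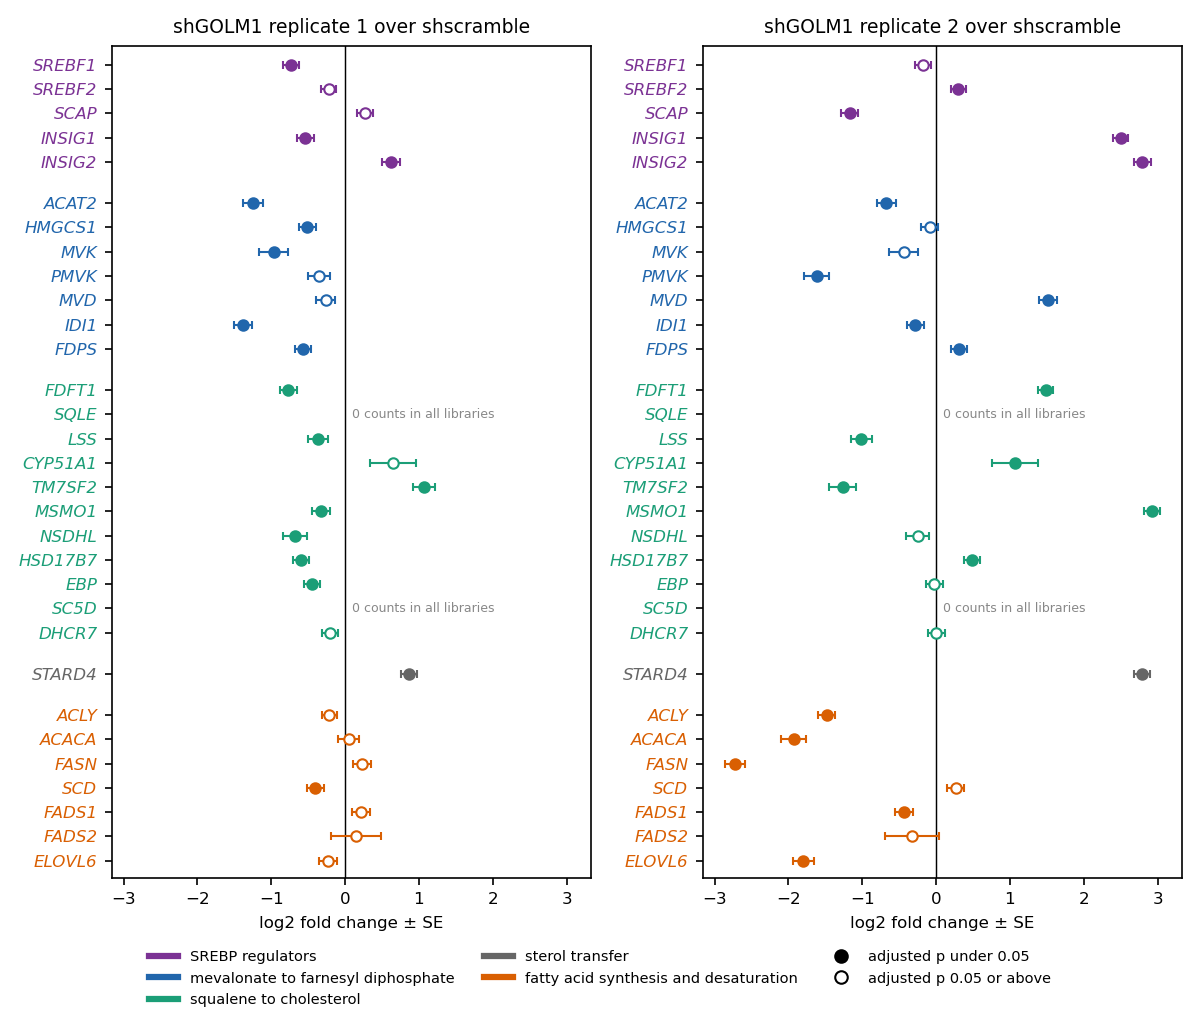
Log2 fold change of each member in shGOLM1 replicate 1 (left) and shGOLM1 replicate 2 (right) over the shscramble pair, with bars of 1 SE from edgeR and filled points for an adjusted p under 0.05. The mevalonate genes lie left of 0 in shGOLM1 replicate 1, and INSIG1, MSMO1 and FDFT1 lie on opposite sides of 0 in the 2 shGOLM1 libraries.

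Most of the fatty acid genes were near the shscramble level in shGOLM1 replicate 1 and lower in shGOLM1 replicate 2. In shGOLM1 replicate 1, 1 of 7 was called lower (SCD) and 0 higher, beside 24.3% and 20.8% of all genes, with a median log2 fold change of 0.05. The counts in shGOLM1 replicate 2 were 5 of 7 called lower and 0 higher, beside 35.5% and 33.1% of all genes, with a median of -1.48. These genes took 0.23% and 0.099% of the counts in shGOLM1, against 0.208% and 0.233% in shscramble. FASN (ENSG00000169710, chromosome 17, 82078333 to 82098332), singled out here after its values were seen, had 1021 and 132 CPM in shGOLM1, against 823 and 922 CPM in shscramble. It stood slightly above the shscramble pair in one shGOLM1 library and far below it in the other. The log2 fold change of FASN was -0.60 (SE 0.98, adjusted p = 0.809) with both, 0.23 (SE 0.12, adjusted p = 0.135) in shGOLM1 replicate 1 and -2.73 (SE 0.14, adjusted p = 4.72e-09) in shGOLM1 replicate 2, where it was 6.61-fold lower.

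ACLY (ENSG00000131473, chromosome 17, 41866908 to 41930542), which makes cytosolic acetyl-CoA from citrate, had 343 and 142 CPM in shGOLM1, against 391 and 403 CPM in shscramble. Its log2 fold change was -0.71 (SE 0.51, adjusted p = 0.585) with both, -0.21 (SE 0.11, adjusted p = 0.128) in shGOLM1 replicate 1 and -1.48 (SE 0.12, adjusted p = 1.83e-07) in shGOLM1 replicate 2. ACACA (ENSG00000278540, chromosome 17, 37084988 to 37406818), the acetyl-CoA carboxylase that commits carbon to fatty acids, had 48.3 and 12.2 CPM in shGOLM1, against 41.5 and 51.8 CPM in shscramble. As with FASN, the low value was that of shGOLM1 replicate 2. For ACACA the log2 fold change was -0.62 (SE 0.71, adjusted p = 0.718) with both, 0.05 (SE 0.14, adjusted p = 0.799) in shGOLM1 replicate 1 and -1.93 (SE 0.17, adjusted p = 5.05e-07) in shGOLM1 replicate 2. ELOVL6 (ENSG00000170522, chromosome 4, 110045846 to 110199199), the elongase of palmitate, had 40.8 and 13.8 CPM in shGOLM1, against 46.7 and 49.4 CPM in shscramble. It was below the shscramble pair in both shGOLM1 libraries, by little in replicate 1. For ELOVL6 the log2 fold change was -0.81 (SE 0.59, adjusted p = 0.588) with both, -0.24 (SE 0.12, adjusted p = 0.132) in shGOLM1 replicate 1 and -1.80 (SE 0.14, adjusted p = 1.85e-07) in shGOLM1 replicate 2. The promoters of ACACA and ELOVL6 shown above hold neither TCACNCCAC nor CCAAT. Other members lower in shGOLM1 replicate 2 do hold CCAAT in that window, with 2 in ACLY, 1 in TM7SF2 and 1 in LSS, whose promoters are not shown. INSIG2, higher in that library, holds 0. Whether these letters go with the changes in level was not tested.

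The desaturases differed less from the shscramble pair. SCD had 539.9 and 861 CPM in shGOLM1, against 685 and 744 CPM in shscramble, with log2 fold changes of -0.40 (adjusted p = 0.0137) in shGOLM1 replicate 1 and 0.27 (adjusted p = 0.0526) in shGOLM1 replicate 2. The second was called higher in 5 of 9 other settings, with adjusted p down to 0.00185, and turned to -0.06 with library totals alone. The first lost its call in 1 of 9 (adjusted p = 0.0625). The FPKM ratio of FASN to SCD was 1.08 and 0.0878 in shGOLM1, against 0.687 and 0.709 in shscramble, so it was above the shscramble pair in one shGOLM1 library and far below it in the other. FADS1, a desaturase of polyunsaturated fatty acids, had 49.8 and 31.8 CPM in shGOLM1, against 43.2 and 42.5 CPM in shscramble, and was called lower in shGOLM1 replicate 2. That call was lost in 1 of 9 other settings (adjusted p = 0.0956), and 2 of 9 called FADS1 higher in shGOLM1 replicate 1 (adjusted p down to 0.0355). FADS2, its partner, had 5.85 and 4.21 CPM in shGOLM1, against 6.95 and 3.63 CPM in shscramble, and the groups overlapped. FADS2 spans FADS1 and also FEN1, which had 3267 and 1131 counts in shGOLM1 and 6047 and 5663 counts in shscramble. In all, 20 members overlap at least 1 other gene, 10 of them a gene with 100 counts or more in a library, while 15 pseudogenes named after members reached at most 12 counts.

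**Figure D3:**
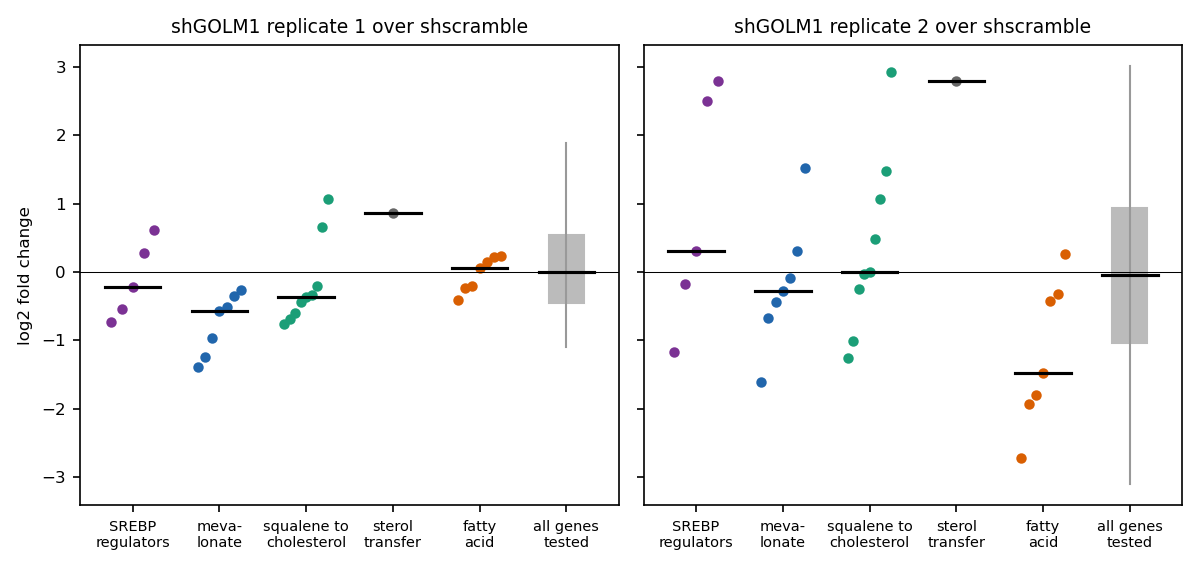
Log2 fold change of the tested members by role (points, with the median as a bar) beside all genes tested (grey box from the 25th to the 75th percentile, line from the 5th to the 95th, bar at the median). In shGOLM1 replicate 1 the mevalonate median is -0.57 and the fatty acid median 0.05, and in shGOLM1 replicate 2 they are -0.28 and -1.48.

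Set against each other in the same fit, the shGOLM1 libraries differed in most members. The log2 difference of replicate 2 minus replicate 1 was called higher for 15 members (30% of all genes) and lower for 9 (33.1% of all genes), and at 2-fold or more it was higher for 8 and lower for 7 (18.5% and 22.2% of all genes). The differences of 2-fold or more ran from 3.26 for MSMO1 (SE 0.14, adjusted p = 4.62e-09), 3.04 for INSIG1 (SE 0.13, adjusted p = 4.78e-09) and 2.25 for FDFT1 (SE 0.13, adjusted p = 2.73e-08) down to -2.95 for FASN (SE 0.15, adjusted p = 1.22e-08). The others higher in replicate 2 by this measure were INSIG2, MVD, IDI1, HSD17B7 and STARD4, and the others lower were SCAP, PMVK, TM7SF2, ACLY, ACACA and ELOVL6. The median difference over the 29 members was 0.43, beside -0.04 over all genes tested, and the members' median became -0.01 with library totals alone. Against shscramble, 2 members were called higher in both shGOLM1 libraries, INSIG2 and STARD4 (11.1% of all genes). ACAT2, IDI1 and LSS, 3 members, were called lower in both (12.8% of all genes). INSIG1, FDPS, FDFT1, MSMO1 and HSD17B7, 5 members, were called lower in shGOLM1 replicate 1 and higher in shGOLM1 replicate 2 (6.04% of all genes). DHCR7 and FADS2 were called in neither (21.4% of all genes).

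Fold changes also moved with gene length across the whole table. Genes were put into 10 bins of about equal size, from bin 1 (shortest) to bin 10 (longest). In shGOLM1 replicate 2 the median log2 fold change of all genes was 0.53 in bin 1 and -0.15 in bin 10, and lowest in bin 8 (-0.20). In shGOLM1 replicate 1 that median was -0.07 in bin 1 and 0.34 in bin 10, and lowest in bin 2 (-0.26). Members were 1280 bases (PMVK) to 13008 bases (ACACA) long. The fatty acid genes lay in bins 6 (ACLY) to 10 (ACACA, FADS1 and FADS2). With each library's median by length as an offset, the members' median was -0.29 in shGOLM1 replicate 1 and -0.06 in shGOLM1 replicate 2, beside -0.33 and -0.18 without it. Medians by role were not taken with this offset.

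**Figure D4:**
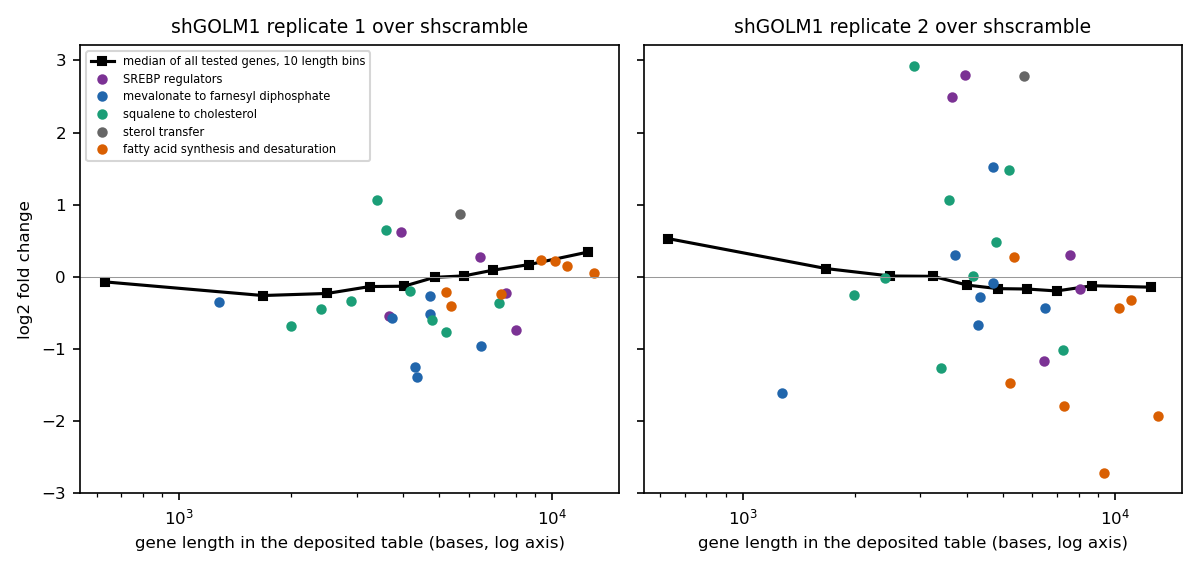
Log2 fold change over the shscramble pair against gene length (log axis) in shGOLM1 replicate 1 (left) and shGOLM1 replicate 2 (right), with members coloured by role and the median of all tested genes in each of 10 length bins in black. From the shortest to the longest bin, the black line runs from -0.07 to 0.34 in shGOLM1 replicate 1, with its lowest point of -0.26 in bin 2. In shGOLM1 replicate 2 the line runs from 0.53 to -0.15, with its lowest point of -0.20 in bin 8. Members scatter on both sides of it.

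The rest of the pathway was read from 5 further lists of 59 genes, of which 50 were tested. In shGOLM1 replicate 1, 7 were called higher and 15 lower, beside 20.8% and 24.3% of all genes. Of the 50, 13 were called higher and 24 lower in shGOLM1 replicate 2, beside 33.1% and 35.5% of all genes, and the counts of the lists that follow stand against these same shares. With both shGOLM1 libraries none was called, and the median log2 fold change of the 50 was -0.23. In the list of sterol synthesis and uptake, 7 of 10 genes were tested, with 2 higher and 3 lower in shGOLM1 replicate 1 and 4 higher and 1 lower in shGOLM1 replicate 2. NPC2, which takes cholesterol from lipoproteins inside the lysosome, had 50.8 and 209 CPM in shGOLM1, against 46.4 and 43.4 CPM in shscramble. NPC1, the membrane protein that receives it from NPC2, had 141 and 119 CPM in shGOLM1, against 86.6 and 95.9 CPM in shscramble, and was called higher in both shGOLM1 libraries. ERG28, a scaffold of sterol synthesis known from yeast, had 38.1 and 97.0 CPM in shGOLM1, against 50.5 and 47.4 CPM in shscramble. NPC2 was called higher in shGOLM1 replicate 2 alone, and ERG28 was called lower in shGOLM1 replicate 1 and higher in shGOLM1 replicate 2.

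In the list of SREBP cleavage and sterol-dependent degradation, all 9 genes were tested, with 2 higher and 0 lower in shGOLM1 replicate 1 and 2 higher and 6 lower in shGOLM1 replicate 2. NPLOC4, a cofactor of the extraction of proteins from the endoplasmic reticulum, had 253 and 75.7 CPM in shGOLM1, against 251 and 257 CPM in shscramble. NPLOC4 was called lower in shGOLM1 replicate 2 alone.

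In the isoprenoid branch, which uses farnesyl diphosphate for other products, 11 of 11 genes were tested, with 1 higher and 2 lower in shGOLM1 replicate 1 and 2 higher and 7 lower in shGOLM1 replicate 2. PDSS1, which makes the tail of coenzyme Q, had 21.3 and 8.43 CPM in shGOLM1, against 28.5 and 31.8 CPM in shscramble, and was called lower in both shGOLM1 libraries. COQ2, which joins that tail to its ring, had 14.1 and 3.12 CPM in shGOLM1, against 18.7 and 16.0 CPM in shscramble. RABGGTA, a subunit of the transferase that prenylates RAB proteins, had 28.7 and 59.7 CPM in shGOLM1, against 25.3 and 28.0 CPM in shscramble. COQ2 was called lower and RABGGTA higher in shGOLM1 replicate 2 alone.

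The list of LXR and sterol efflux genes holds nuclear receptor genes as well as genes that respond to high sterol. It had 8 of 9 tested, with 1 higher and 4 lower in shGOLM1 replicate 1 and 2 higher and 3 lower in shGOLM1 replicate 2. RXRB, a nuclear receptor that pairs with LXR, had 27.3 and 156 CPM in shGOLM1, against 36.2 and 37.6 CPM in shscramble. LPCAT3, a phospholipid acyltransferase and LXR target, had 25.6 and 8.6 CPM in shGOLM1, against 32.2 and 34.6 CPM in shscramble. NR1H3, which encodes LXR alpha, had 7.43 and 0.878 CPM in shGOLM1, against 7.35 and 7.15 CPM in shscramble. RXRB was called lower in shGOLM1 replicate 1 and higher in shGOLM1 replicate 2, while LPCAT3 was called lower in both and NR1H3 lower in shGOLM1 replicate 2 alone.

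Of 20 further genes of fatty acid synthesis, 15 were tested, with 1 higher and 6 lower in shGOLM1 replicate 1 and 3 higher and 7 lower in shGOLM1 replicate 2. HACD3, a dehydratase of fatty acid elongation, had 55.9 and 26.2 CPM in shGOLM1, against 84.8 and 87.3 CPM in shscramble. ACSL3, an acyl-CoA synthetase, had 81.8 and 50.5 CPM in shGOLM1, against 127 and 133 CPM in shscramble. MLX, the partner of the glucose-responsive factor MLXIPL, had 36.9 and 47.1 CPM in shGOLM1, against 78.9 and 75.6 CPM in shscramble. All 3 were called lower in both shGOLM1 libraries, with log2 fold changes of -1.07 (adjusted p = 0.448), -0.97 (adjusted p = 0.422) and -0.88 (adjusted p = 0.42) with both libraries.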

How the data were processed

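RNA-seq counts of 2 shGOLM1 and 2 shscramble libraries of SUP-M2 were used, grouped by title. Per the labels' protocols, RNA came from a column kit and libraries from a SMARTER mRNA kit. The sources used here give no aligner, counting tool or strand setting. GRCm38 and mm10 stand in the submitters' processing notes, but all 58735 gene identifiers are those of GENCODE 29 on GRCh38, as are the coordinates of all 31 members. The deposited count per gene is a whole number of reads. The authors' deposited FPKM values were used for levels between genes and in no test of calls. The authors' mean signal per group was not used. The log2 fold change, the p-value and the adjusted p-value that the authors computed from the counts, with a tool not named, are the authors' own, per the file headers.

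edgeR 4.0.16 (limma 3.58.1, R 4.3.3) was run on the counts with TMM factors of 1.12 and 0.827 in shGOLM1 and 1.02 and 1.05 in shscramble, filterByExpr and Benjamini-Hochberg adjustment over 14166 genes, two-sided, threshold 0.05. One fit had group alone, and a second had a coefficient for each shGOLM1 library. Alternatives were other scalings, filters, DESeq2 1.42.0, limma-voom, a replicate block, left-out libraries, separate fits of 3 libraries and FPKM ratios, and, chosen after seeing the data, a length offset, a robust fit and a crossed block. Counts of the shscramble pair were not copies of each other (chi-square per gene 14.4). Figures were drawn with matplotlib 3.10.9.

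The members and lists were chosen with earlier results of these data known. Every member is named. Full statistics went to the 5 regulators and to up to 3 members per role with the largest log2 fold change in the group fit, and up to 3 genes were named from each further list. Not every gene of the lists is reported here.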

Additional observations from a re-analysis of the deposited data

How the results depend on the processing

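With both shGOLM1 libraries as replicates, genes called higher and lower were 0 and 0, against 175 and 17 without a filter on low counts, 485 and 48 in DESeq2, 169 and 34 with the replicate number as a block and 107 and 15 with the crossed block, each with 0 members called. Whether libraries of the same replicate number share a culture or batch is not said. The correlation of same-numbered deviations across genes was -0.133, which rests on 1 difference per group and cannot decide this. Leaving out 1 library gave 16 to 5078 genes higher and 4 to 5212 lower, and 0 to 10 members higher and 0 to 14 lower, all members called coming where a shGOLM1 library was left out and the other stood alone. The member median of -0.09 became -0.22 with library totals alone and ran from -0.35 to -0.14 when 1 library was left out.

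In shGOLM1 replicate 1, DESeq2 called 1648 genes higher, against 2942. Members called higher were 6, against 3, with library totals alone and with a stricter filter (5 CPM or more in 2 libraries). The member median of -0.33 became -0.22 with library totals, -0.38 without a filter, -0.23 with the 5 CPM filter, -0.29 with the length offset and -0.33 to -0.28 with 1 shscramble library. In shGOLM1 replicate 2, members called lower were 17, against 11, with library totals, and the median of -0.18 became -0.50 with library totals, -0.28 without a filter, -0.091 with the 5 CPM filter and -0.06 with the length offset. For shGOLM1 replicate 2 minus replicate 1, library totals gave 2825 genes higher, against 4256, 9 members higher, against 15, and a median of -0.0091, against 0.43 and 0.57 with the length offset. Library totals moved the median of all genes by 0.11 in shGOLM1 replicate 1, -0.33 in shGOLM1 replicate 2 and -0.44 between them. Of 17 members called in shGOLM1 replicate 1, 13 kept direction and call in each alternative with a test. Of 21 called in shGOLM1 replicate 2, 15 did, and SREBF2 and FDPS changed sign with library totals. Of members not called, 6 gained a call in at least 1 alternative in shGOLM1 replicate 1 (SREBF2, SCAP, PMVK, ELOVL6, FADS1 and FASN) and 6 in shGOLM1 replicate 2 (SREBF1, HMGCS1, MVK, NSDHL, EBP and SCD), besides DHCR7 with library totals. The 15 members 2-fold apart between the shGOLM1 libraries kept direction and call throughout. They did not all stay 2-fold apart, as the lowest log2 difference was 0.66 for IDI1 and 0.64 for HSD17B7. The causes were not tested.

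Signs of single genes turned as follows, all of them log2 fold changes. With both shGOLM1 libraries these were with the crossed block TM7SF2 (-0.083), HSD17B7 (-0.057), with the 5 CPM filter FDPS (0.051), DHCR7 (0.023), SCD (0.089), FADS1 (0.044), FADS2 (0.045), with the length offset FDPS (0.046), DHCR7 (0.019), SCD (0.071), with library totals alone SREBF2 (-0.067), HSD17B7 (-0.13), with limma-voom TM7SF2 (-0.0062), HSD17B7 (-0.075), FADS2 (0.00098), with no filter SREBF2 (-0.019), HSD17B7 (-0.046) and with the replicate block TM7SF2 (-0.085), HSD17B7 (-0.057). In shGOLM1 replicate 1 these were with the length offset ACACA (-0.29), FADS1 (-0.13), FADS2 (-0.21). In shGOLM1 replicate 2 these were with DESeq2 EBP (0.012), with DESeq2-type size factors EBP (0.012), with the 5 CPM filter HMGCS1 (0.036), EBP (0.10), with the length offset HMGCS1 (0.065), with library totals alone SREBF2 (-0.026), FDPS (-0.020), DHCR7 (-0.32), SCD (-0.059), with no filter DHCR7 (-0.10) and with separate fits DHCR7 (-0.045). With 1 library left out from the comparison of both groups, signs turned for SREBF2 (-0.24 to 0.25), SCAP (-1.22 to 0.26), INSIG1 (-0.56 to 2.45), MVD (-0.28 to 1.47), FDPS (-0.59 to 0.26), FDFT1 (-0.78 to 1.43), TM7SF2 (-1.31 to 1.05), MSMO1 (-0.35 to 2.88), HSD17B7 (-0.61 to 0.43), ACACA (-1.98 to 0.035), FASN (-2.77 to 0.21), SCD (-0.42 to 0.22), FADS1 (-0.48 to 0.20) and FADS2 (-0.51 to 0.43).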

Other observations

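HSD17B12, ME1 and ABCG1, 3 genes of the further lists, had 0 counts in each of the 4 libraries, and were picked out after their values were seen. HSD17B12 is a ketoacyl-CoA reductase of fatty acid elongation, ME1 the cytosolic malic enzyme that supplies NADPH, and ABCG1 a sterol exporter. As with SQLE and SC5D, a count of 0 allows up to 3 counts per library.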
